A study of Mus musculus with 20 samples.

Results

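Among the 42006 probes of a mouse footpad array series, 150 formed a list whose footpad signal stepped up between the last stage before birth and postnatal day 1 (P1) in wild-type (WT) and Tabby mice alike, with later movement limited by the choice. The members were selected on the measured values of these same arrays. A probe had to be well above background in footpad RNA on all 4 arrays of P1, to differ by less than 1 in log2 between P1 and P5 and between P5 and adult, and to differ by less than 0.5 between Tabby and WT at P5 and in adults. Of the 16773 probes that met these conditions, 491 had a step from E17.5 to P1 above 1, and the 150 with the largest step were kept. The step, the level from P1 to adult and the genotype difference at P5 and in adults are therefore given here as a description, with no test. The P3 arrays played no part in the choice. The members were not all low before birth: 94 were well above background on all 4 arrays of E17.5.

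Footpad skin was taken under a dissection microscope from WT and Tabby mice, both labelled with the strain C57BL6/J, before birth at embryonic stage E17.5, at P1, P3 and P5 after birth and from adults (P56). Each of the 10 groups had 2 arrays, labelled as biological replicates, and the labels do not say whether a replicate pooled several animals. Total footpad RNA was labelled with Cy3 and hybridised on every array together with a Cy5-labelled mouse reference, with no dye swap. Per the labels, the reference was a pool of RNA from 11 mouse cell lines mixed at 2:1 with RNA of 129ES cells (Lif+), an embryonic stem cell line, and all 20 arrays carry the same wording. Each stage was hybridised on a slide of its own, with both genotypes on it, and the E17.5 slide was scanned on a day of its own, so stage and slide cannot be told apart. One array stood apart, Tabby E17.5 replicate 2: its log2 ratios of footpad over reference had an SD of 0.811 over all probes, against 1.07 to 1.08 on the other 3 arrays of that slide, and a slope of 0.72 on their mean. Its SD of footpad levels in Cy3 alone, 4.15, was near the 4.08 to 4.12 of the others. Genotype tests that involve E17.5 are therefore given with and without it. In whole skin, fewer cells of a type and less RNA per cell cannot be told apart either. With 2 arrays a group, p-values measure only the spread between these arrays, and precision is limited by how few there are.

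Around birth the skin passes from amniotic fluid to air, the cornified barrier is completed, and feeding, microbes and a new temperature act on the tissue. In mice, eccrine sweat glands are found in the footpads, where they bud before birth and extend secretory coils after it. Tabby mice carry a mutation of Eda, the ectodysplasin ligand that starts these glands, and lack them. The files list the probes by Z-numbers and 60-base sequences with no gene name, and no table used here named a member. The members are therefore described by probe, and the footpad label could not be checked against marker genes.

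On a 2-colour array, both RNAs compete for the same spot. A probe whose reference RNA does not change should give the same Cy5 signal on every slide, and the Cy5 signal of each member was therefore followed beside its Cy3 signal. The sequences below are those on which the description turns. The first set gives 5 of the 8 members with the largest steps, printed 5′ to 3′ from the deposited files and with nothing marked.

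Z00007563-1: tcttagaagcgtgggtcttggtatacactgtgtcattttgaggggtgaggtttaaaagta
Z00074976-1: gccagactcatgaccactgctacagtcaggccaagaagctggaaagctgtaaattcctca
Z00005196-1: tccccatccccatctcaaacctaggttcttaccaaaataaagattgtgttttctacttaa
Z00044782-1: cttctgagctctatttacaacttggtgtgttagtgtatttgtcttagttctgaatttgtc
Z00071899-1: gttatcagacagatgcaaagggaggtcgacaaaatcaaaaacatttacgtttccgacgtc

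A further 4 lines pair members whose probes overlap, with the longest run of shared bases in capitals. In Z00004931-1 and Z00034455-1 the bases before the capitals match as well, but for an added ta, so these probes are nearly identical. Probes that overlap can read 1 transcript from separate spots. Z00013472-1 stood among the first 8 by step, and Z00004931-1 and its partner were among the members with the largest difference in the reference.

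Z00013472-1: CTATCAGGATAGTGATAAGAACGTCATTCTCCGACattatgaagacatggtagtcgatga
Z00075058-1: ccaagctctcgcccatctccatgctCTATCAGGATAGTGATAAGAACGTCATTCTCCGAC
Z00004931-1: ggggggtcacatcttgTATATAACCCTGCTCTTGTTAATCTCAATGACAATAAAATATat
Z00034455-1: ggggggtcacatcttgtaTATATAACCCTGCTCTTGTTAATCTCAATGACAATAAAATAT

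The last set gives the 3 members with the largest steps among those whose reference signal was alike at E17.5 and P1, and the member with the smallest p for a genotype difference at P3.

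Z00061659-1: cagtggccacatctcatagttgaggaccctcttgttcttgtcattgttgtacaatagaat
Z00025079-1: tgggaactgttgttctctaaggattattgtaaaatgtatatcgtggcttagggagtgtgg
Z00029942-1: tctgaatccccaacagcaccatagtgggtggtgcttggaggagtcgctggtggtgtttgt
Z00060758-1: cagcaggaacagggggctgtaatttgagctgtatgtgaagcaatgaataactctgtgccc

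The probes did not stand apart in composition. Their GC content had a median of 45% and a range of 30% to 75%, against a median of 45% among the 16773 probes that met the other conditions. The polyadenylation signal AATAAA, searched on the printed strand alone, stood in 11 members (7.33%) and in 6.93% of all probes. A reading frame without a stop codon ran through 122 members (81.3%) and through 83.4% of all probes. Among all pairs of members, 4 shared at least 30 bases, so the 150 probes may stand for fewer transcripts. The closest pair, Z00070958-1 and Z00071819-1, held the same 60 bases, and a member and a probe outside the list, Z00056915-1 and Z00025947-1, shared 48. The members of this last pair had Cy3 steps of 1.47 and 1.18, and so fell on either side of the cut.

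Levels are given as log2 of the Cy3 signal processed by the scanner software, minus the median of the array, so that 0 is the median probe and 1 unit is 2-fold. The step, P1 minus E17.5 over the 4 arrays of each stage, had a median of 1.92 over the 150 members (3.79-fold) and ran from 1.47 to 7.18. It was above 2 in 71 members and above 4 in 14. Taken by genotype, the median step was 1.94 in WT and 1.94 in Tabby, and it was above 1 in both genotypes for all 150. The 4 arrays of P1 lay above the 4 arrays of E17.5 in all 150 members, and all 16 postnatal arrays did so in 146. The choice limited P1 to P5 and P5 to adult separately, so adult levels could lie further from P1. Named after their values were seen, Z00017387-1 went from 5.88 to 6.12 at P1 to 4.04 to 5.1 in adults, beside 4.31 to 4.71 at E17.5. Z00055358-1 went the other way, from 0.85 to 1.26 at P1 to 2.24 to 2.99 in adults. At the edge of the list, Z00076757-1 and Z00056915-1, the last members, had steps of 1.470 and 1.467, and Z00054512-1 and Z00022939-1, the first probes left out, had 1.466 and 1.463.

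The reference signal of most members also stepped up, often by more than the footpad signal. In Cy5, P1 minus E17.5 had a median of 1.82 over the members and ran from -1.60 to 13.70. It was above 1 in 96 members (64.0%), where the background was 9.14% of all 42006 probes and 8.63% of the 16773 that met the other conditions. It was above 4 in 59 members and above 8 in 28. Of the 96, 60 were well above background in Cy5 on all 4 E17.5 arrays and 22 on none, and 17 of the 150 had a surrogate in Cy5 on at least 1 E17.5 array, a stand-in that the scanner software puts in place of a signal not told apart from background. For spots not detected in Cy5 at E17.5, differences are therefore given below as lower bounds against the lowest Cy5 signal that counted as detected there. A further 49 members had a reference within 1 of its E17.5 level, 24 of them within 0.5, and in 5 the reference was lower at P1 by more than 1. The first 10 members by step, and 46 of the first 50, belonged to those whose reference was higher by more than 1.

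**Figure D1:**
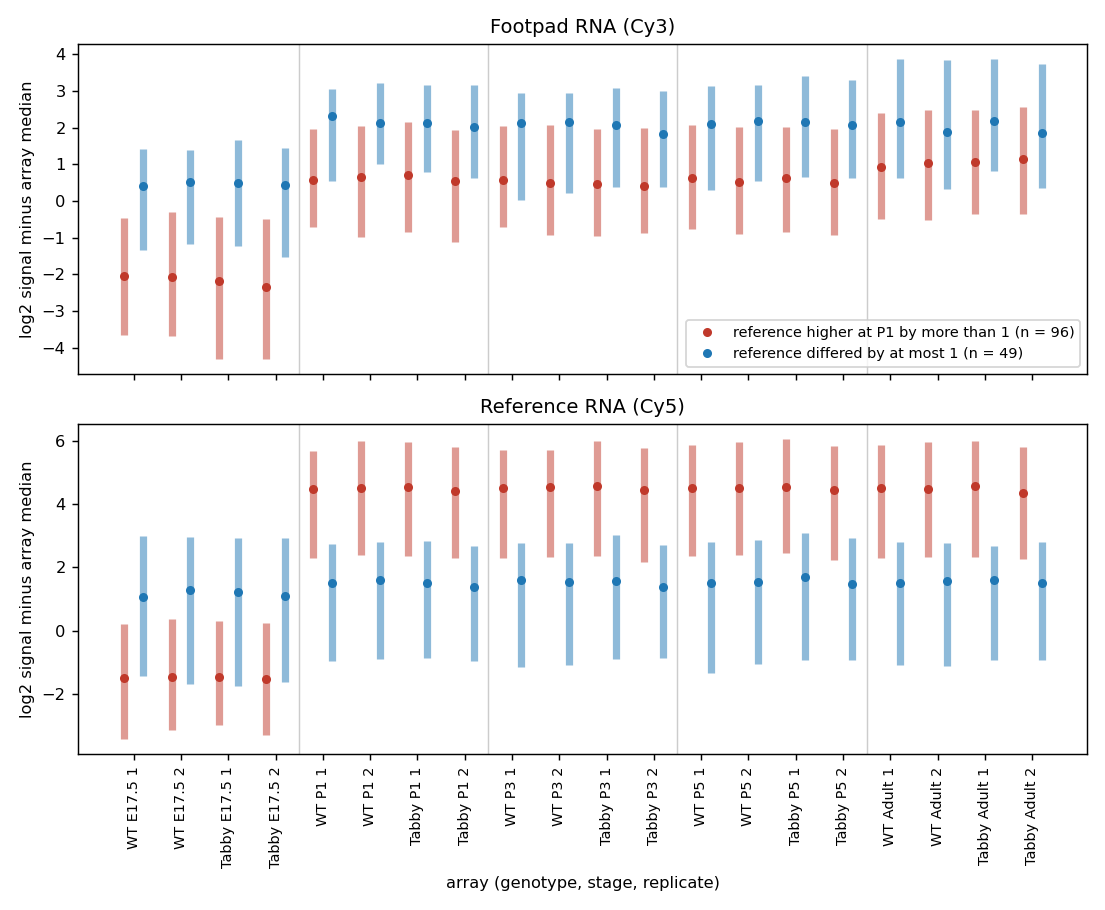
Median level (dot) and quartiles (bar) of the members on each of the 20 arrays, as log2 signal minus the array median, for footpad RNA (top) and reference RNA (bottom); the 96 members whose reference was higher at P1 by more than 1 are red and the 49 whose reference differed by at most 1 are blue. The red medians step up from E17.5 to P1 in both panels, while the blue medians do so in the footpad panel. In the reference panel the blue medians lie between 1.07 and 1.27 at E17.5 and between 1.37 and 1.69 on the later arrays.

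This difference in Cy5 set the E17.5 slide apart from the other 4. Over all probes, the Cy5 difference between P1 and E17.5 had an SD of 1.07, against 0.251 between P3 and P1 and 0.449 between adult and P1. The correlation of Cy5 levels over all probes was 0.966 between E17.5 and P1 and 0.994 or more between any 2 of the other stages, as a description of slides that share 1 labelled reference. The labels give 1 reference for all slides, and the part of this difference in the footpad step was not tested. Among the 16773 probes, the share with a Cy3 step above 1 was 1.58% where the Cy5 step lay between -0.5 and 0.5, 9.07% between 1 and 2, 43.6% between 4 and 8, and 82.4% above 8. Where the reference was lower at P1 the share was 1.31% between -2 and -1, and 0 of 99 probes below -2. Among these probes, a footpad step was thus more frequent the higher the reference stood at P1 above E17.5, with no such rise on the side of a lower reference.

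**Figure D2:**
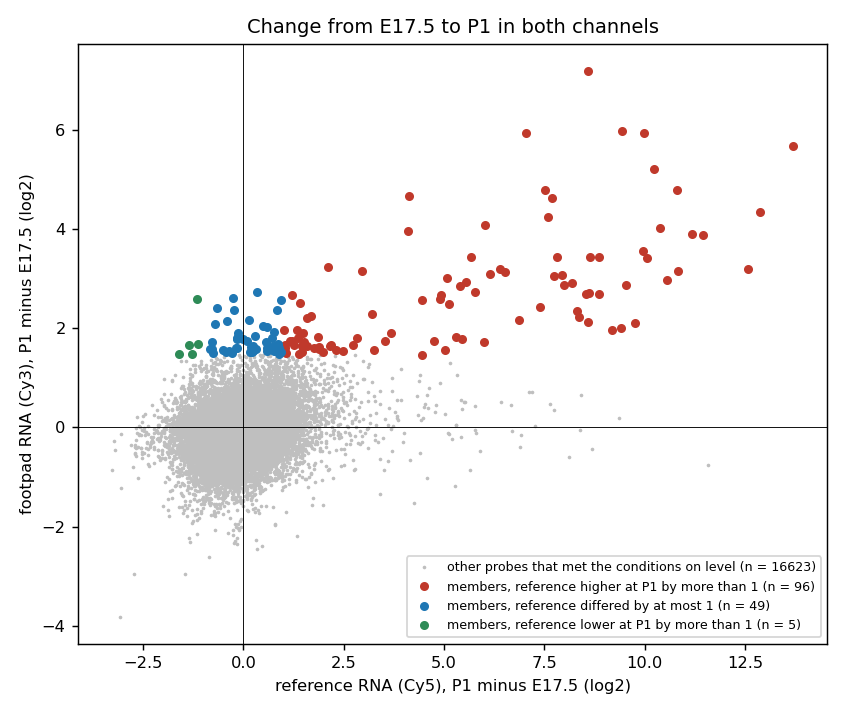
Footpad difference (Cy3, vertical axis) against reference difference (Cy5, horizontal axis) between P1 and E17.5, both in log2, for the 150 members and the other 16623 probes that met the conditions on level. Members with the largest footpad steps lie far to the right, at reference differences that rest on undetected E17.5 spots where they are largest, while the 49 blue members lie within 1 of 0 on the horizontal axis with footpad steps of 1.48 to 2.73.

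Z00007563-1 had the largest step. Its footpad levels at E17.5 were -4.15 and -4.81 in WT and -4.76 and -4.34 in Tabby, and at P1 they were 2.70 and 2.73 in WT and 2.81 and 2.41 in Tabby. On the 12 later arrays the lowest level was 2.50, the median 2.78 and the highest 3.02. The E17.5 arrays stood far below an otherwise flat course in both genotypes. The spot was not well above background in Cy3 on any E17.5 array, where the raw mean Cy3 signal was 58.9 to 64.5, against 435.2 to 535.8 at P1. On 2 of the 4 E17.5 arrays the processed Cy3 signal was a surrogate, so the step of 7.18 is not a measured ratio. Set against the lowest signal that counted as detected, the signal at P1 was at least 8.49-fold higher after loess and Aquantile normalization and at least 5.87-fold higher with no dye normalization. Both kinds of bound are given below, in this order, since they hold only on their own scale. Its raw Cy5 signal was 58.9 to 66.1 at E17.5 and 5682.2 to 8661.8 on the 16 postnatal arrays.

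Z00074976-1 had footpad levels of -4.52, -4.59, -4.74 and -4.97 at E17.5 (WT, WT, Tabby, Tabby) and 1.33, 1.27, 1.38 and 1.07 at P1. The later arrays ran from 1.04 to 1.61 with a median of 1.32. Here too the E17.5 spots were not well above background in Cy3, and the signal at P1 was at least 3.96-fold and 2.72-fold higher than the limit. Z00044782-1 repeated the pattern, with -5.00, -4.90, -4.87 and -4.99 at E17.5, 0.28, 0.47, 0.50 and -0.14 at P1, and bounds of at least 2.60-fold and 1.81-fold. Neither probe was well above background in Cy5 at E17.5, and both were brighter in that dye at P1 by at least 7.91 and 8.06 in log2.

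Z00005196-1 was the largest step that both stages measured. It was well above background in both dyes on all 4 arrays of E17.5, at footpad levels of -1.36 and -1.53 in WT and -1.31 and -1.62 in Tabby. At P1 the levels were 4.50, 4.48, 4.62 and 4.34, and the 12 later arrays lay between 4.28 and 5.28 with a median of 4.39. Its raw Cy3 signal was 75.6 to 84.1 at E17.5 and 1379.7 to 1634.2 at P1. The reference of the same spot gave 110.0 to 115.2 at E17.5 and 11584.7 to 16775.1 on the postnatal arrays, a difference of 7.05 between P1 and E17.5. Both RNAs were thus detected but low in raw signal at E17.5, and bright at every later stage.

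Z00013361-1 had a reference that was not well above background on any E17.5 array, with surrogates on 3 of them, and that stood at least 11.50 higher in log2 at P1. Its raw Cy5 signal was 47.8 to 56.8 at E17.5 and 38463.0 to 52340.3 after birth, while its raw Cy3 signal went from 57.2 to 66.2 at E17.5 to between 161.5 and 218.2 at P1. Its footpad levels were -3.83, -4.90, -4.88 and -4.99 at E17.5 and 0.97, 1.20, 1.32 and 0.63 at P1, with bounds of at least 3.65-fold and 2.35-fold. A spot with a bright reference on 4 slides was thus at background on the E17.5 slide. Of the remaining members among the first 8, Z00013472-1 had bounds of at least 6.36-fold and 4.33-fold, Z00023836-1 of at least 2.57-fold and 1.86-fold, and Z00071899-1 of at least 2.93-fold and 1.99-fold. None of the 3 was detected in Cy5 at E17.5, and their reference stood at least 8.12, 7.05 and 9.10 higher in log2 at P1.

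Detection at E17.5 limits what the steps mean for many members. No E17.5 array was well above background in Cy3 for 41 members, 38 of them with a reference higher by more than 1. In 27 members at least 1 E17.5 Cy3 value was a surrogate, and at P1 none was. A lower bound could be given for 39 of these 41, from at least 1.06-fold to at least 8.49-fold with a median of 1.51, and the other 2 had none. With no dye normalization, a bound chosen after seeing the data, the range over 39 members was at least 1.01-fold to at least 5.87-fold with a median of 1.13, and 36 of the 37 with a bound on both scales had the smaller one here. All 4 E17.5 arrays were well above background in 94 members. At P3, P5 and in adults, all 4 arrays were well above background in 149, 148 and 147 members.

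**Figure D3:**
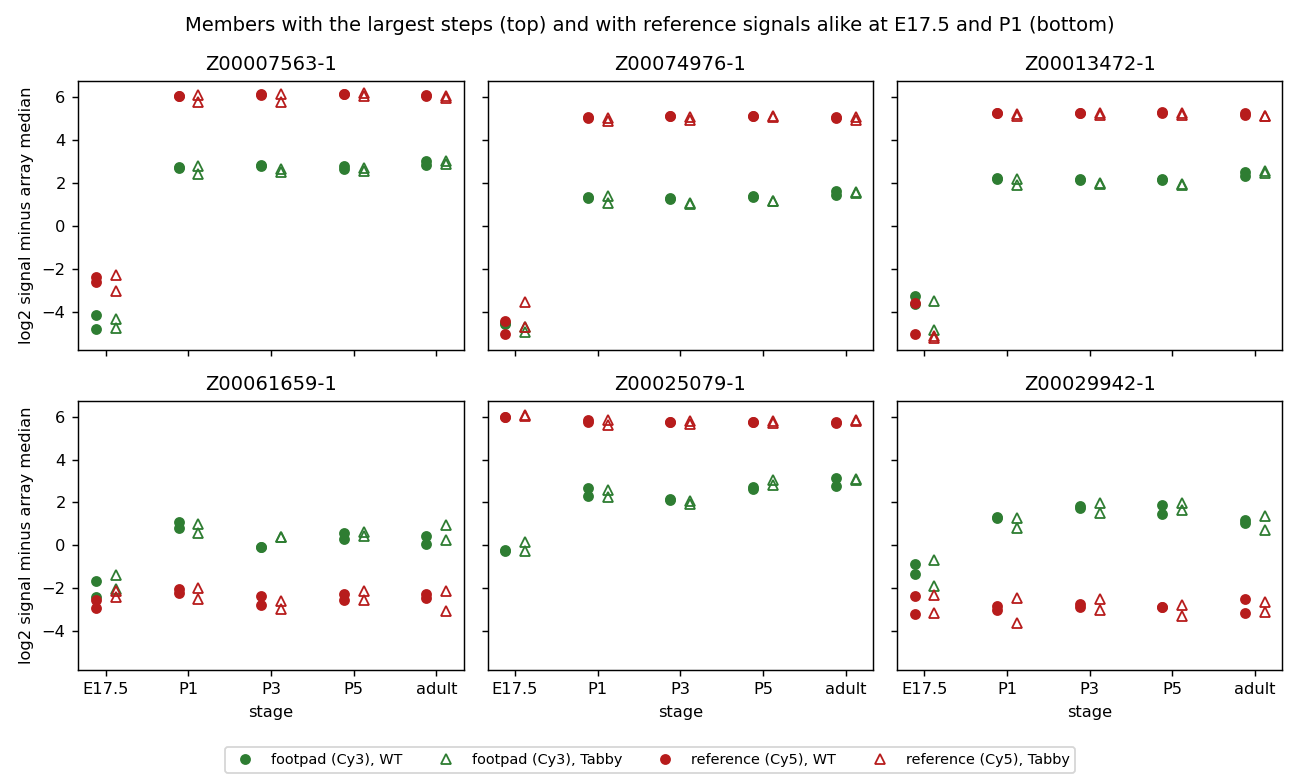
Footpad (green) and reference (red) levels, as log2 signal minus the array median, on each array by stage, with filled circles for WT and open triangles for Tabby; the top row shows the 3 members with the largest steps and the bottom row 3 members whose reference differed by at most 0.5. In the top row both dyes are at or below -2.28 at E17.5 and at or above 1.04 on every later array, and in the bottom row only the green symbols step.

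Overlapping probes gave steps in the same direction from separate spots, but not always of the same size. Z00013472-1 and Z00075058-1, which share 35 bases, had steps of 5.94 and 3.43 in Cy3, the first against undetected E17.5 spots, and of at least 8.12 and 5.67 in Cy5. Z00075058-1 was well above background at E17.5, with levels of -1.13, -1.17, -1.47 and -1.14 there and 2.28, 2.18, 2.19 and 2.19 at P1. Z00004931-1 and Z00034455-1, which share a run of 42 bases and nearly all of the others, had steps of 3.91 and 3.88 in Cy3. In Cy5 the step was 11.18 in the first, detected on 3 of 4 E17.5 arrays, and at least 11.13 in the second, detected on none. For this pair of nearly identical probes, the spots gave nearly the same value in Cy3. Z00024317-1 and Z00058380-1, which also share 42 bases, had Cy3 steps of 2.69 and 2.13 and Cy5 steps of 8.85 and 8.59. The identical probes Z00070958-1 and Z00071819-1 had Cy3 steps of 1.64 and 1.52 and Cy5 steps of 1.59 and 1.47.

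Division by the reference reversed the step of many members. The log2 ratio of footpad over reference, after background correction and a loess adjustment within each array, could be had for 149 members at both stages. The member without it, Z00065915-1, has a GC content of 75% and was marked as an outlier spot on 15 arrays. P1 minus E17.5 in the ratio was above 1 in 32 of the 149, where the background was 4.54% of all probes with a ratio. It was above 0 in 76 and below 0 in 73, below -1 in 68, and had a median of 0.08 with a range of -6.98 to 3.26. The step in the ratio shares its Cy3 values with the choice of the members and is a description. All 73 members with a negative ratio step had a reference higher by more than 1 at P1. With Cy3 steps of at least 1.47 in every member, this was largely fixed by the choice.

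Each of the first 8 members by step had a lower ratio at P1 than at E17.5. The ratio step was -2.86 in Z00007563-1, -3.15 in Z00074976-1, -2.72 in Z00013472-1, -1.87 in Z00005196-1, -6.86 in Z00013361-1, -3.83 in Z00044782-1, -2.90 in Z00023836-1 and -4.74 in Z00071899-1. Z00034687-1, Z00031972-1 and Z00005148-1 had the smallest ratio steps of all members, -6.98, -6.97 and -6.96, beside Cy3 steps between 1.96 and 4.34. Except for Z00005196-1, none of the first 8 was well above background in Cy3 on any E17.5 array, and most were not in Cy5 either. Z00034687-1 and Z00005148-1 were detected in neither dye there. For these undetected spots the E17.5 ratio is a value near the detection limit, so the size of the ratio step was not measured. In the computed values, the direction of the members named here depended on whether the reference channel was used. The size of the Cy3 steps also depended on the processing. With Cy3 mean signals after normexp background correction (offset 50) and no dye normalization, 77 of the 150 had a step above 1. The first 8 had steps from 0.92 in Z00023836-1 to 3.94 in Z00005196-1. That scale differs from the processed signals in the offset, the surrogates and the dye normalization, and the part of each was not tested. The first 8 were thus still higher at P1 in Cy3 on that scale, by less.

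The members with a reference within 1 had ratio steps in the direction of their Cy3 steps. In 39 of these 49, Cy5 was well above background on all arrays of E17.5 and P1. Among the 49, the Cy3 step had a median of 1.64 and a range of 1.48 to 2.73, and the ratio step was above 0 in all 48 with a value and above 1 in 26. Its smallest value was 0.09. The reference of these members was higher at P1 by at most 0.94, so the choice of the set largely fixed a positive ratio step. In 43 of the 49, all 4 E17.5 arrays were well above background in Cy3. At P1 their ratio was above 0 in 39, that is, above the typical probe of like intensity, which the loess adjustment sets to about 0. A ratio above 0 at P1 was also found in 24 of the 96 members with a higher reference and in none of the 59 whose reference was higher by more than 4. Among the 49, the reference still differed, by a median of 0.21 between P1 and E17.5. The medians of their Cy5 levels were 1.07 to 1.27 on the E17.5 arrays and 1.37 to 1.69 on the 16 postnatal arrays. The probes named next were chosen after their values were seen, as those with the largest steps among the 24 with a reference within 0.5. In 19 of these 24, Cy5 was well above background on all 8 arrays of both stages.

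Z00061659-1 had footpad levels of -2.42 and -1.66 in WT and -1.37 and -2.06 in Tabby at E17.5, and 0.79 and 1.07 in WT and 0.56 and 0.98 in Tabby at P1. The 12 later arrays lay between -0.09 and 0.96 with a median of 0.38. The groups did not overlap, and the Cy5 levels ran from -2.95 to -2.15 at E17.5 and from -3.05 to -1.98 after birth. Its step was 2.73 in Cy3 and 1.35 in the ratio. Its spots were dim, with Cy5 well above background on 3 of the 4 E17.5 arrays and 2 of the 4 P1 arrays, and with raw Cy3 signals of 70.3 to 77.4 at E17.5 and 141.1 to 213.5 at P1.

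Z00025079-1 had a bright reference, with Cy5 levels of 5.97 to 6.09 at E17.5 and 5.63 to 5.84 after birth. Its footpad levels were -0.23, -0.26, 0.14 and -0.27 at E17.5 and 2.31, 2.68, 2.57 and 2.24 at P1, and the later arrays ran from 1.94 to 3.13 with a median of 2.75. These spots were thus bright in the reference at both stages, and the footpad signal, low in raw signal at E17.5, was alone higher at P1. The step was 2.60 in Cy3 and 1.54 in the ratio, in raw Cy3 signals from 104.5 to 117.0 at E17.5 to between 345.7 and 521.1 at P1.

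Z00029942-1 had levels of -1.33, -0.89, -0.69 and -1.91 at E17.5 and 1.26, 1.30, 1.28 and 0.81 at P1, with later arrays from 0.70 to 1.97. Its step was 2.37 in Cy3 and 1.61 in the ratio, and its reference differed by -0.24, with Cy5 well above background on 2 E17.5 arrays and 1 P1 array. Z00045358-1, Z00029374-1, Z00076423-1 and Z00053174-1 had Cy3 steps of 2.15, 2.13, 1.89 and 1.83 and ratio steps of 1.37, 0.87, 0.90 and 1.81. In Z00045358-1, Z00076423-1 and Z00053174-1, Cy5 was well above background on all arrays of both stages, and the ratio kept the direction of Cy3. Z00029374-1 was well above background in Cy3 on 1 of the 4 E17.5 arrays and in Cy5 on no array of either stage, so neither its reference nor its ratio step is more than a value near the detection limit.

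In 5 members the reference level was lower at P1 by more than 1 while the footpad level was higher. Z00074365-1, also named after its values were seen, had the largest ratio step of all members, 3.26. Its footpad levels were 2.21, 2.12, 2.19 and 2.12 at E17.5 and 4.76, 4.91, 4.83 and 4.45 at P1, a Cy3 step of 2.58. Its Cy5 levels differed by -1.16 between P1 and E17.5, so its ratio step took in a higher footpad and a lower reference signal. Z00024504-1, Z00023659-1 and Z00076757-1 had Cy3 steps of 1.67, 1.48 and 1.47 and ratio steps of 1.10, 2.80 and 2.37. The fifth, Z00077258-1, was not well above background in Cy3 on any E17.5 array or in Cy5 on any P1 array. Its footpad signal at P1 was at least 1.33-fold and 1.09-fold higher, and the size of its reference difference was not measured.

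The brightest members were among those with a modest step. Z00071146-1 had footpad levels of 8.71, 8.52, 8.61 and 8.57 at E17.5 and 9.86, 10.24, 10.25 and 10.73 at P1, a step of 1.67 beside 1.25 in the reference and 0.38 in the ratio. Its raw Cy3 signal went from between 17171.2 and 21670.3 to between 46946.9 and 91516.9, and no spot of a member was saturated. Z00071819-1 and Z00070958-1, the identical probes, both had P1 levels from 9.20 to 9.85 and ratio steps of 0.08 and 0.06. For these 3 probes, footpad and reference went up by similar amounts on well measured spots. Z00064897-1, Z00027581-1 and Z00056178-1 had the lowest levels at P1, with raw Cy3 signals between 60.4 and 74.9 there, close to the 56.5 to 66.6 of their E17.5 spots. With no dye normalization, the bounds of Z00027581-1 and Z00056178-1 were at least 1.01-fold and 1.02-fold and Z00064897-1 had none, so their steps rest on differences at the detection limit.

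P3 played no part in the choice, but the P1 and E17.5 values it is set against did, so its position is a description. P3 lay within 1 of P1 in 148 of the 150 members, where the background was 95.6% of all probes, a share near that of the members. P3 minus P1 had a median of -0.10 and a range of -1.29 to 0.72, and it was negative in 110 members. Within the narrower band of 0.5, 119 members (79.3%) lay near their P1 level, a lower share than the 90.5% of the 16773 probes that met the other conditions. P3 was at least 1 above E17.5 in 138 members, and its 4 arrays lay above the 4 of E17.5 in 149. The exception was Z00037557-1, whose P3 levels were -0.39, -1.59, -0.96 and -0.35, against -1.56, -1.31, -1.78 and -2.23 at E17.5.

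The members furthest at P3 from the mean of their P1 and P5 levels were so in both genotypes. Z00015761-1 lay 0.93 below the mean of its P1 and P5 levels, with P3 levels of -1.41 and -1.48 in WT and -1.75 and -1.78 in Tabby between -0.66 to -0.13 at P1 and -1.11 to -0.86 at P5. Z00067430-1 lay 0.80 below, with P3 levels of -0.77, -0.90, -0.81 and -0.77 against -0.15, -0.32, 0.06 and 0.22 at P5. In both probes all 4 arrays of P3 lay below all 4 of P1 and of P5. The other member that differed by more than 1 from P1, Z00017053-1, had P3 levels of 4.12, 4.26, 3.72 and 3.76 after 5.28, 5.49, 5.03 and 4.92 at P1. Z00034257-1 and Z00029942-1 lay furthest above the mean of their P1 and P5 levels, by 0.33 and 0.32. For Z00029942-1, P3 levels of 1.85, 1.74, 1.97 and 1.53 were near its P5 levels of 1.485, 1.86, 1.957 and 1.642. For Z00034257-1, P3 levels of -1.30, -1.56, -1.45 and -1.24 overlapped its P1 levels of -1.53, -1.493, -1.309 and -1.74. The spread over the 16 postnatal arrays had a median SD of 0.30 in members with a higher reference and of 0.39 in those with a reference within 1.

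No member passed the test in any genotype comparison that the choice of members did not use directly. The log2 ratios of 32121 probes, 149 of them members, were fitted in 1 limma model with a mean for each of the 10 groups and Benjamini-Hochberg adjustment over all probes. At P3, 0 members had an adjusted p under 0.05, where the background was 76 probes or 0.237%. At P1 and at E17.5, 0 members were called as well, where the background was 0.0342% and 0.0125%. Of the background calls, 71 of 76 at P3, all 11 at P1 and all 4 at E17.5 were lower in Tabby. The choice of members had left out probes not well above background on all P1 arrays, and those that differed by genotype at P5 or in adults. With that choice and such low shares, 0 calls among 149 members says little about the members. For the genotype difference of the step itself, Tabby minus WT of P1 minus E17.5, 0 members were called, where the background was 0.0% with 0 probes. At an unadjusted p under 0.05 by the same model, the members numbered 11 (7.38%) at P3, 8 (5.37%) at P1, 22 (14.8%) at E17.5 and 10 (6.71%) for the difference of the step, against 9.4%, 4.27%, 11.5% and 5.31% of all probes. Tabby minus WT ranged over the members from -0.55 to 0.57 at P3, from -0.37 to 0.37 at P1 and from -0.52 to 1.12 at E17.5. The difference of the step ranged from -1.11 to 0.61. Without Tabby E17.5 replicate 2, the array that stood apart, the range was -0.54 to 0.41 at E17.5 and -0.51 to 0.45 for the step, with 0 members called by limma in either and 5 (3.36%) and 2 (1.34%) at an unadjusted p under 0.05. The 1.12 belonged to Z00075252-1, whose ratios at E17.5 were -4.20 and -4.03 in WT and -3.95 and -2.05 in Tabby. A p that misses the threshold with 2 arrays a group does not show that the genotypes were alike.

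**Figure D4:**
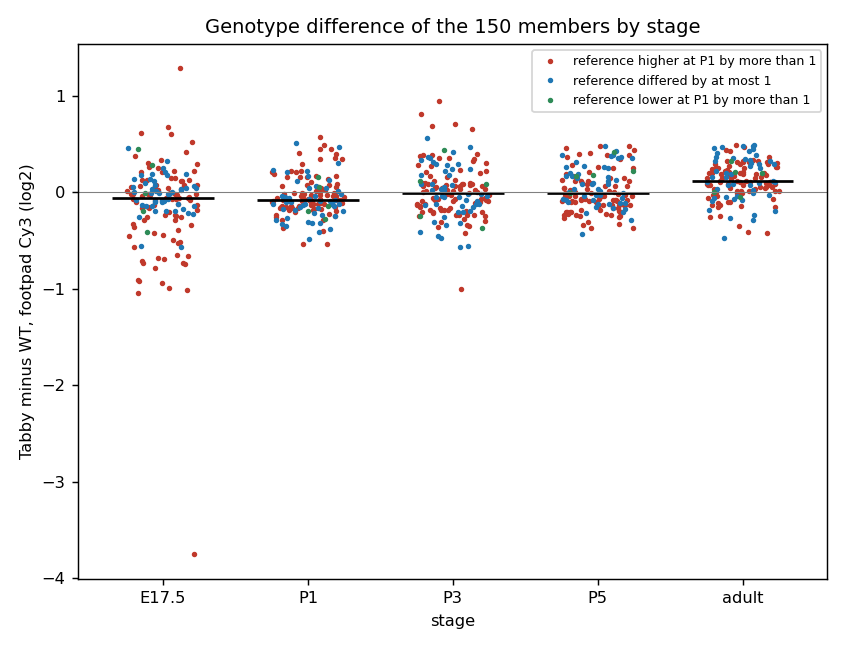
Tabby minus WT difference of the footpad level (log2, mean of 2 arrays each) for each of the 150 members by stage, coloured by the difference of the reference between P1 and E17.5; the black line is the median. P5 and adult were limited to differences under 0.5 by the choice of members, and the widest spread, from -3.76 to 1.28, was at E17.5.

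Z00060758-1 came closest to a genotype difference. Its ratio at P3 was 0.32 and 0.32 in WT and 0.75 and 0.66 in Tabby, and at P1 it was 0.41 and 0.36 in WT and 0.77 and 0.66 in Tabby. Both Tabby arrays lay above both WT arrays at each of these stages. Tabby minus WT was 0.39 ± 0.11 (SE) at P3 with a limma Benjamini-Hochberg adjusted p of 0.240, and 0.33 ± 0.11 at P1 with an adjusted p of 1.00, and neither passed. With array weights in the limma fit, 12 members passed at P3, 6 of them higher in Tabby, beside 3234 of all probes, and Z00060758-1 was among them with a Benjamini-Hochberg adjusted p of 0.0046. In the other alternatives run for P3, among them leaving out each array, 0 members passed.

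At E17.5 the smallest p belonged to Z00074831-1. Its footpad levels at E17.5 were -1.01 and -1.28 in WT and -4.88 and -4.92 in Tabby, and the Tabby spots were not well above background. From P1 on, its levels lay between -0.57 and 0.17 in both genotypes. In the ratio, Tabby minus WT at E17.5 was -0.52 ± 0.14 (SE) with a limma Benjamini-Hochberg adjusted p of 0.433, which missed the threshold. The Cy3 channel alone gave -3.76 with a Benjamini-Hochberg adjusted p of 1.47e-06 in limma, and the processed signals of both channels gave -3.57 with 0.0292. Its raw Cy3 signals at E17.5 all lay between 58.0 and 87.7, so the larger values rest on the surrogates that stood for both Tabby spots. In the Cy3 channel alone Z00074284-1 also passed (-0.99), with levels of -0.55 and -0.12 in WT and -1.29 and -1.37 in Tabby, and with processed signals Z00023836-1 did (-1.39). The Cy3 channel alone also called the difference of the step in 1 member, again Z00074831-1, by 3.50. For the Cy3 channel alone and the processed signals, the count over all probes is not given here, so these calls cannot be set against a background.

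The comparisons with E17.5 depended on which Tabby array was kept. Without Tabby E17.5 replicate 1, the fit sets Tabby E17.5 replicate 2 alone, the array that stood apart, against WT. In that fit 44 of the 149 members were called at E17.5 by limma, beside 8195 of all 32121 probes, and 37 members were called for the difference of the step, beside 5641 of all probes. Without any other single array, Tabby E17.5 replicate 2 included, 0 members were called by limma in either comparison. For the difference of the step, Z00028264-1 had the smallest p, with ratios of -0.69 and -0.46 in WT and -0.35 and -0.24 in Tabby at E17.5, and 0.78 and 0.98 in WT and 0.49 and 0.70 in Tabby at P1. Its step was smaller in Tabby by 0.57 ± 0.17 (SE), with a limma Benjamini-Hochberg adjusted p of 0.760. Its adjusted p in limma was 0.0376 without Tabby E17.5 replicate 1, a fit in which the remaining Tabby E17.5 array is assumed to vary like the other groups.

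In the Cy3 channel, the genotype difference was within 0.5 in 124 members at E17.5 (82.7%), in 146 at P1 (97.3%) and in 141 at P3 (94.0%). The same shares among the 16773 probes that met the other conditions were 99.3%, 98.8% and 98.2%. The median difference over the members was -0.06, -0.08 and -0.01 at these stages and 0.12 in adults. Of the 26 members that differed by 0.5 or more at E17.5, 21 were lower in Tabby. The footpad signal was well above background on all 4 E17.5 arrays in 2 of these 26, on 1 to 3 arrays in 5 and on none in 19. The part of the detection limit in the wider spread at E17.5 was not tested.

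Outside the list, the probes whose 20 footpad levels followed the mean of the members most closely were Z00012035-1, Z00062172-1 and Z00034905-1, with Pearson correlations of 0.983, 0.981 and 0.980 over the 20 arrays. All 3 met the other conditions and had smaller steps, 0.68, 1.27 and 1.42. Their reference differed by -0.42, 1.31 and 0.06 between P1 and E17.5. The arrays of a slide share their reference and their hybridisation, so these correlations are a description of the same 5 slides.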

How the data were processed

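The members and lists were chosen with earlier results of these data known. Groups came from the labels, and slide and scan day from the file headers (5 slides of 4 arrays, 3 scan days). The scanner software was Agilent Feature Extraction, version 9.5.1.1, per the file headers. The deposited array files give for each dye the mean spot signal and local background as an intensity, and a processed intensity after background subtraction, with surrogate values for spots not told apart from background, and dye normalization. A log10 ratio, reference to footpad, is deposited with them. The deposited table of values, with 25030 probes and 84 of the members, holds log10 values whose direction and centring the authors did not state in the sources used here. Set against the array files, it followed footpad over reference plus a constant per probe, within 0.001 for 64.4% of its probes, with a median SD of 3.1e-05; what was done to the other probes was not tested. Its column medians were 2.58 to 2.59 at E17.5, 2.57 to 2.59 from P1 to P5 and 2.53 in adults.

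Levels were computed as log2 of the deposited processed Cy3 (or Cy5) intensity minus the array median, over non-control spots averaged by probe. For the tests, log2 footpad over reference was computed from the deposited mean intensity of both dyes with normexp (offset 50) and loess within arrays (limma 3.58.1, R 4.3.3, and its package data.table at version 1.17.8); control spots had no weight in the loess and outlier spots were set to missing. The 32121 probes well above background in Cy3 on at least 2 arrays, with values in every group, were tested in 1 model over 20 arrays (10 residual and 3.52 prior degrees of freedom, prior SD 0.104), two-sided, at a Benjamini-Hochberg adjusted p under 0.05. On each array, 27195 to 30269 probes counted as detected in Cy3. The model was tested on simulated data. Bounds compare the mean at P1 with the lowest signal well above background on each E17.5 array, or the spot's own if higher, on per-channel values after loess and Aquantile; with no dye swap they are open to dye bias, and bounds on Cy3 with no dye normalization, and on processed Cy5, were added after seeing the data.

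Named probes were the 8 largest steps, the 2 last members and first 2 probes left out, the member with the smallest p in each comparison, the 2 members furthest above and below at P3, overlapping pairs, the 3 highest and 3 lowest at P1, the 3 smallest ratio steps and the 3 most alike probes outside the list; others are said to be chosen after their values were seen. Tables and figures were made with Python 3.11.15, numpy 2.4.6, pandas 2.3.3 and matplotlib 3.10.9. The alternatives covered background correction, normalization, filters, the fit, the value table, a replicate block and leaving out each array. Gene names, a genome and marker lists were not used here, because the probes carry no gene names.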

Additional observations from a re-analysis of the deposited data

How the results depend on the processing

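The counts of members called were 0 in every alternative run except the following, which are printed here with no count over all probes beside them. With array weights 12 members passed at P3. At E17.5, 2 passed with processed signals and 2 in the Cy3 channel alone, and leaving out single arrays gave 0 to 44. For the genotype difference of the step, the Cy3 channel alone gave 1 and leaving out single arrays 0 to 37; the upper values were without Tabby E17.5 replicate 1, where the array that stood apart, Tabby E17.5 replicate 2, was alone. Without the E17.5 slide, an alternative chosen after seeing the data, 0 members passed at P1 and at P3. The replicate block also gave 0 members in each comparison. Replicate numbers were shared only as numbers: the correlation of the replicate differences between the genotypes ranged over the 5 stages from -0.07 (P3) to 0.22 (adults), so they were not taken to pair the arrays.

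The count of members with a ratio step above 1 was 32 and lay between 31 and 44 in the other ratio settings and without single arrays, while the Cy3 channel alone, on the 75th percentile, gave 150, and Cy3 mean signals with no dye normalization, added after seeing the data, gave 77. The choice of members rested on the scale: of the 150, 13 were chosen again by the same rule on the log2 ratio, 46 on Cy3 mean signals with no dye normalization, 99 on the Tabby arrays alone and 102 on the WT arrays alone, against 148 with the 75th percentile in place of the median and 139 to 146 without single arrays. The steps of the first 8 members reversed in the log2 ratio, to -2.86 in Z00007563-1, -3.15 in Z00074976-1, -2.72 in Z00013472-1, -1.87 in Z00005196-1, -6.86 in Z00013361-1, -3.83 in Z00044782-1, -2.90 in Z00023836-1 and -4.74 in Z00071899-1; in each of them the reference was higher at P1 by more than 1. Apart from Z00005196-1, these members had no detected Cy3 signal at E17.5, so the size of their ratio step was not measured. The causes of the other changes were not tested. Signal over background limits the 41 members with no detected footpad signal at E17.5, for which only bounds can be given, and these depend on the dye normalization.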
